A study of Homo sapiens with 12 samples.

Results

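Aminoacyl-tRNA synthetases are the enzymes that attach each amino acid to its transfer RNAs, and their genes were followed here through AKT and EZH2 inhibition in C4.2B cells. A gene was a member if it was protein-coding and its symbol was that of a synthetase: a 1-letter amino acid code followed by ARS or ARS2, the fused glutamyl-prolyl enzyme EPRS, or the phenylalanyl subunits FARSA, FARSB and FARS2. The rule found 37 genes of the 58735 in the deposited count table, 20 for cytosolic enzymes and 17 for mitochondrial enzymes, whose symbols end in 2. All 37 passed the filter on low counts and are among the 16646 genes tested. The symbols are those of the files, which use older names (AARS is now AARS1, and likewise for the other cytosolic enzymes outside the FARS subunits).

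C4.2B is a castration-resistant prostate cancer line derived from LNCaP, in which AKT signalling is active. Polyadenylated RNA was sequenced from 12 libraries in 4 groups of 3. The groups were vehicle (DMSO), the AKT inhibitor ipatasertib at 0.25 µM (AKTi), the EZH2 inhibitor tazemetostat at 1 µM (EZH2i), and both agents together (combination). Tazemetostat was given for 6 days before a 24 h cotreatment. At the start of the cotreatment all 4 groups were moved to medium with 10% charcoal-stripped serum, which is low in steroid hormones. Per the study's methods, the replicates were plates of 1 cell line, seeded in triplicate on the day before the cotreatment. The p-values therefore measure the spread between plates and not between tumours or lines. Whether the plates of a group shared 1 pretreated culture is not stated. EZH2 is the methyltransferase that places the repressive histone mark H3K27me3, and AKT is the kinase that relays PI3K signals to growth and to mTORC1.

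Each synthetase activates its amino acid with ATP and transfers it to the matching tRNA, and a cell needs a full set in the cytosol and another in the mitochondrion. The mitochondrial enzymes are nuclear-encoded and imported. KARS and GARS each supply both compartments from 1 gene, so the set has no KARS2 or GARS2, and mitochondrial glutaminyl-tRNA is made by amidation of glutamyl-tRNA and not by a separate QARS2. In the cytosol, the enzymes for glutamate and proline, leucine, isoleucine, methionine, glutamine, lysine, arginine and aspartate sit together in the multisynthetase complex, and the others are free. When amino acids run short or the endoplasmic reticulum is stressed, the transcription factor ATF4 raises a set of genes that includes many cytosolic synthetases. From such background knowledge 12 members were listed as ATF4-linked (AARS, CARS, EPRS, GARS, IARS, LARS, MARS, NARS, SARS, TARS, WARS and YARS), and the other 8 cytosolic members were DARS, FARSA, FARSB, HARS, KARS, QARS, RARS and VARS.

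The libraries held 14133755 to 22276417 counts. The luminal prostate markers KLK3, TMPRSS2, HOXB13, FOLH1, KRT8 and KRT18 were all at 50.0 CPM (read counts relative to the library's total, scaled to a common size) or more in every library. The basal marker KRT5 had 0 counts in all 12, and another basal marker, TP63, had at most 1 count. The immune marker PTPRC reached at most 0.919 CPM and the endothelial marker PECAM1 at most 0.304 CPM, while the fibroblast collagen COL1A1 lay at 4.27 to 17.6 CPM, and averaged 5.67 with vehicle, 5.05 with AKTi, 16.8 with EZH2i and 11.9 with both. The share of counts on genes of the mitochondrial genome moved with the groups, at 2.37 to 3.36% in DMSO, 3.93 to 4.29% in AKTi, 4.35 to 5.31% in EZH2i and 5.14 to 5.64% in the combination. The part of this share and of COL1A1 in the results below was not tested. In these bulk libraries fewer cells expressing a gene and less RNA of it per cell cannot be told apart.

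Levels are given as CPM after scaling the libraries by trimmed means (TMM), and levels of different genes are set side by side only per kilobase of the gene length that the authors deposited. In DMSO the cytosolic genes with the highest levels per kilobase were AARS at 125 ± 10.3 CPM per kilobase (SD, n = 3), FARSA at 111 ± 3.75 and EPRS at 111 ± 6.41. FARSA and EPRS did not differ beyond their spread. CARS was the lowest cytosolic gene, at 12.3 ± 0.226 CPM per kilobase, and ranked 28 of the 37. IARS2, the mitochondrial isoleucyl enzyme, was the highest mitochondrial gene at 68.0 ± 4.09 CPM per kilobase and ranked 11. SARS2, the mitochondrial seryl enzyme, ranked last at 0.877 ± 0.104 CPM per kilobase, with 524 counts in the 12 libraries together. Its span shares 15493 bases on the same strand with AC011455.2, a protein-coding gene with 0 counts in all libraries, and 349 bases with MRPS12 on the other strand. How reads on shared bases were counted is not given in the sources used here, and the part of this overlap in the low count of SARS2 was not tested. Summed over the 20 cytosolic genes, the level was 6269.8 to 6818 CPM in DMSO, 5512 to 5683 in AKTi, 3405 to 3622 in EZH2i and 4906 to 5161 in the combination. Summed over the 17 mitochondrial genes it was 1146 to 1229 CPM, 1137 to 1145, 789 to 812 and 628 to 662 in the same order. The cytosolic sum was thus lowest in EZH2i and partly back up in the combination, whereas the mitochondrial sum was lowest in the combination. No library of EZH2i overlapped with one of the combination in either sum.

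**Figure D1:**
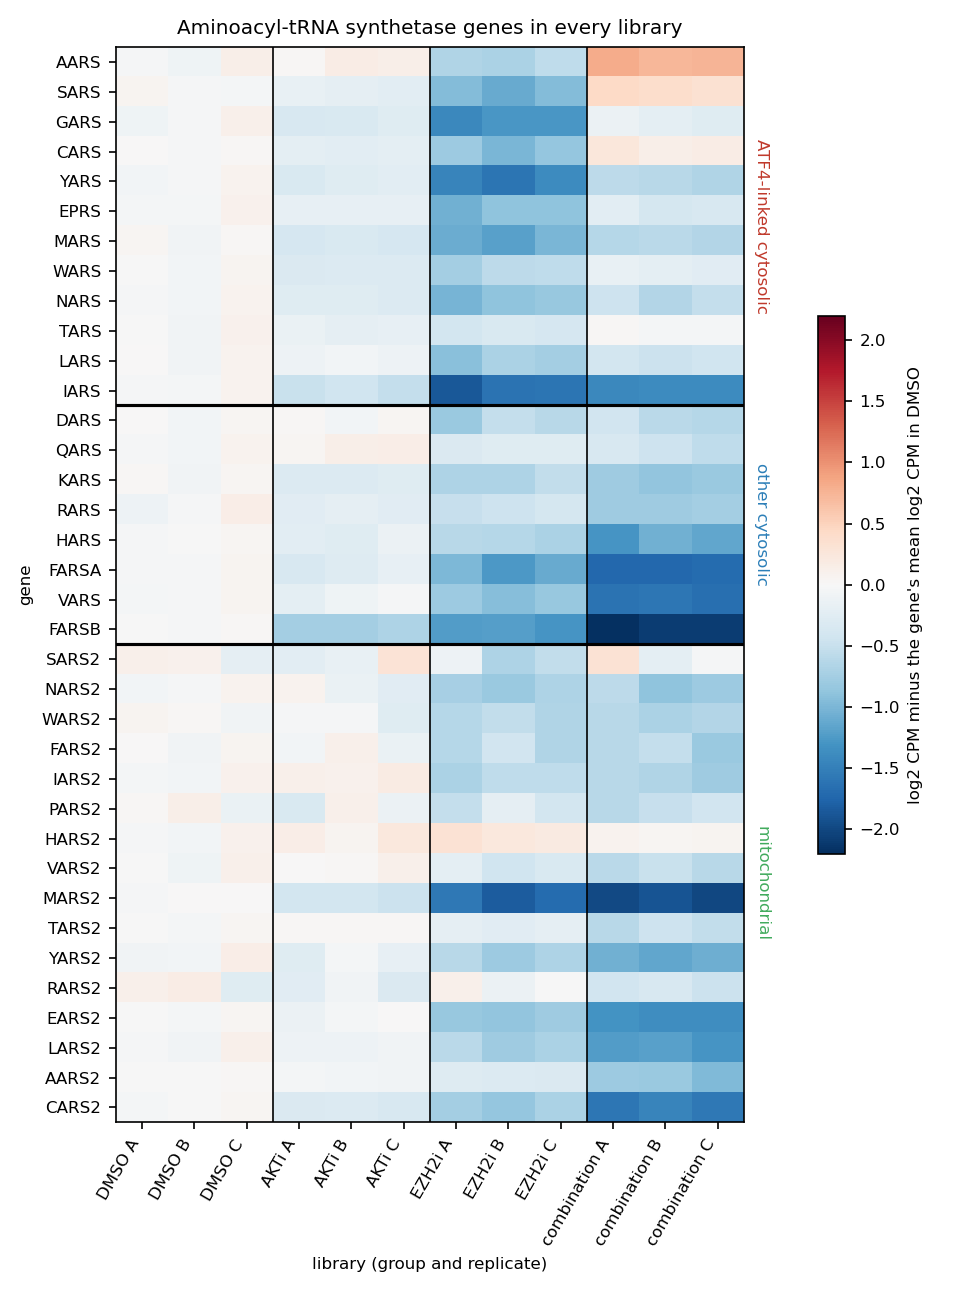
Each row is 1 of 36 of the genes and each column 1 of the 12 libraries; the colour is the gene's log2 CPM minus its mean log2 CPM in DMSO, and black lines part the 4 groups and the 3 classes of gene. Nearly all rows turn blue (lower) in EZH2i, and in the combination the ATF4-linked rows turn paler or red (AARS to a mean of 952 CPM) while most other rows turn darker blue (FARSB to 45.9 CPM).

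EZH2 inhibition alone lowered nearly the whole family. Against DMSO, all 20 cytosolic members and 14 of the 17 mitochondrial members fell, 1 mitochondrial member rose and 2 were not called (edgeR quasi-likelihood test, Benjamini-Hochberg adjusted p under 0.05 over all 16646 genes, as in all comparisons below). Of all genes tested, 64.1% were called in this comparison, 32.6% higher and 31.5% lower. The median log2 fold change was −0.87 for the cytosolic and −0.58 for the mitochondrial members, beside 0.03 over all genes tested. The lowest values were those of IARS, MARS2 and YARS. IARS, the cytosolic isoleucyl enzyme, stood at 549, 545 and 592 CPM in the 3 DMSO libraries and at 154, 182 and 183 CPM in EZH2i (3.25-fold lower; log2 fold change −1.70, standard error 0.059, adjusted p = 7.1e-24). MARS2, which charges the mitochondrial methionyl-tRNA, stood at 59.6, 61.1 and 60.7 CPM and at 20.4, 17.1 and 18.7 CPM (log2 fold change −1.69, standard error 0.081, adjusted p = 8.3e-20). The cytosolic tyrosyl gene YARS went from 322, 329.6 and 352 CPM to 122, 110.2 and 128 CPM (log2 fold change −1.48, standard error 0.058, adjusted p = 2.8e-22). In these 3 genes every EZH2i library lay below every DMSO library. The smallest fall among the cytosolic members was that of QARS, the glutaminyl enzyme (−0.29, adjusted p = 3.8e-05), and among the called mitochondrial members that of TARS2 (−0.22, adjusted p = 0.0048).

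HARS2, the mitochondrial histidyl enzyme, was the one member that rose with EZH2i: it was at 42.5, 41.3 and 46.0 CPM in DMSO and 54.0, 50.6 and 49.7 CPM in EZH2i (log2 fold change 0.24, standard error 0.072, adjusted p = 0.0033). Without DMSO replicate B the adjusted p of HARS2 was 0.094, and the gene was no longer called. Its cytosolic partner HARS fell in the same libraries (−0.65, adjusted p = 4.4e-11), from 101, 102 and 105 CPM to 67.0, 66.7 and 63.1 CPM. The genes lie head to head on opposite strands and their annotated spans overlap by 437 bases, and whether the counting used strand is not given in the sources used here. HARS2 also shares 639 bases on the same strand with ZMAT2, a gene with 13606 counts in the 12 libraries together. The part of these overlaps in the values of HARS and HARS2 was not tested. The 2 members not called were SARS2 (−0.43, adjusted p = 0.16), the gene of few counts, and RARS2 (adjusted p = 0.99).

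AKT inhibition alone had a smaller effect in the same direction. AKTi was given for 24 h, whereas EZH2i was given for 6 days before these 24 h as well. Agent and time of exposure cannot be told apart where AKTi and EZH2i are set side by side. Against DMSO, 15 of the 20 cytosolic members and 3 of the 17 mitochondrial members were lower, and none was higher. Over all genes 42.5% were called, 20.6% higher and 21.9% lower. The median log2 fold change was −0.23 for the cytosolic and −0.10 for the mitochondrial members, beside 0.01 over all genes. The fall was largest for FARSB, which encodes the beta subunit of the cytosolic phenylalanyl enzyme and was at 199, 198 and 205 CPM in DMSO and 119, 119 and 125 CPM in AKTi (1.66-fold lower; log2 fold change −0.73, standard error 0.056, adjusted p = 2.9e-13). IARS (log2 fold change −0.48, standard error 0.057, adjusted p = 8.4e-09) and MARS2 (log2 fold change −0.42, standard error 0.076, adjusted p = 1.9e-05) followed. CARS2 (−0.32, adjusted p = 1.6e-04), the mitochondrial cysteinyl enzyme, fell as well, and the count of 3 mitochondrial members was 2 to 4 with 1 library left out in turn. AARS, the alanyl enzyme, was not called with AKTi, at 551, 523 and 613 CPM in DMSO and 573, 629 and 617 CPM in AKTi (0.11, adjusted p = 0.13), and the groups overlapped. Without DMSO replicate C, AARS, QARS and IARS2 were called higher with AKTi and EPRS was no longer called lower. LARS and LARS2 were called lower without DMSO replicate B, VARS without AKTi replicate C and YARS2 without AKTi replicate B. Set directly against AKTi, EZH2i was lower for all 20 cytosolic and 13 of the 17 mitochondrial members (50.4% of all genes called, 25.4% higher and 25.1% lower), with medians of −0.67 and −0.44. The lowest values were those of MARS2 (log2 fold change −1.27, standard error 0.083, adjusted p = 1.7e-15), IARS (log2 fold change −1.21, standard error 0.059, adjusted p = 3.6e-19) and YARS (log2 fold change −1.20, standard error 0.058, adjusted p = 3.7e-19).

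With both inhibitors the cytosolic members were called in both directions. Against DMSO, 16 of the 20 cytosolic members were lower, 3 were higher and 1 was not called, and 15 of the 17 mitochondrial members were lower with 2 not called. Over all genes 73.2% were called, 38% higher and 35.2% lower. The median log2 fold change was −0.54 for the cytosolic and −0.68 for the mitochondrial members, beside 0.06 over all genes. The 3 higher members were AARS, SARS and CARS, all ATF4-linked, and the lowest were FARSB, MARS2 and FARSA.

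AARS (chr16:70252295-70289543, minus strand, hg38, the span of the deposited gene model) had the highest value of the family against DMSO. Its level was 551, 523 and 613 CPM in DMSO, 573, 629 and 617 in AKTi, 353, 347 and 381 in EZH2i and 989, 929.9 and 938 in the combination. The combination lay above every other library and EZH2i below every other library, and the rise over DMSO was 1.69-fold (log2 fold change 0.76, standard error 0.057, adjusted p = 1.6e-14). SARS, the seryl enzyme (chr1:109213918-109238169, plus strand), was at 368, 348 and 344 CPM in DMSO, 314, 308 and 301 in AKTi, 182, 165 and 182 in EZH2i and 478, 462 and 448 in the combination. Its libraries of the 4 groups did not overlap in any pair, with the combination highest (1.31-fold over DMSO; log2 fold change 0.39, standard error 0.053, adjusted p = 3.4e-08). CARS, the cysteinyl enzyme, was at 125, 121 and 126 CPM in DMSO, 106, 106 and 107 in AKTi, 71.5, 61.9 and 68.7 in EZH2i and 147, 136 and 139 in the combination. Its rise over DMSO was small (1.14-fold; log2 fold change 0.18, standard error 0.058, adjusted p = 0.0051) and was lost without DMSO replicate B, AKTi replicate A or combination replicate A, with adjusted p up to 0.1.

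**Figure D2:**
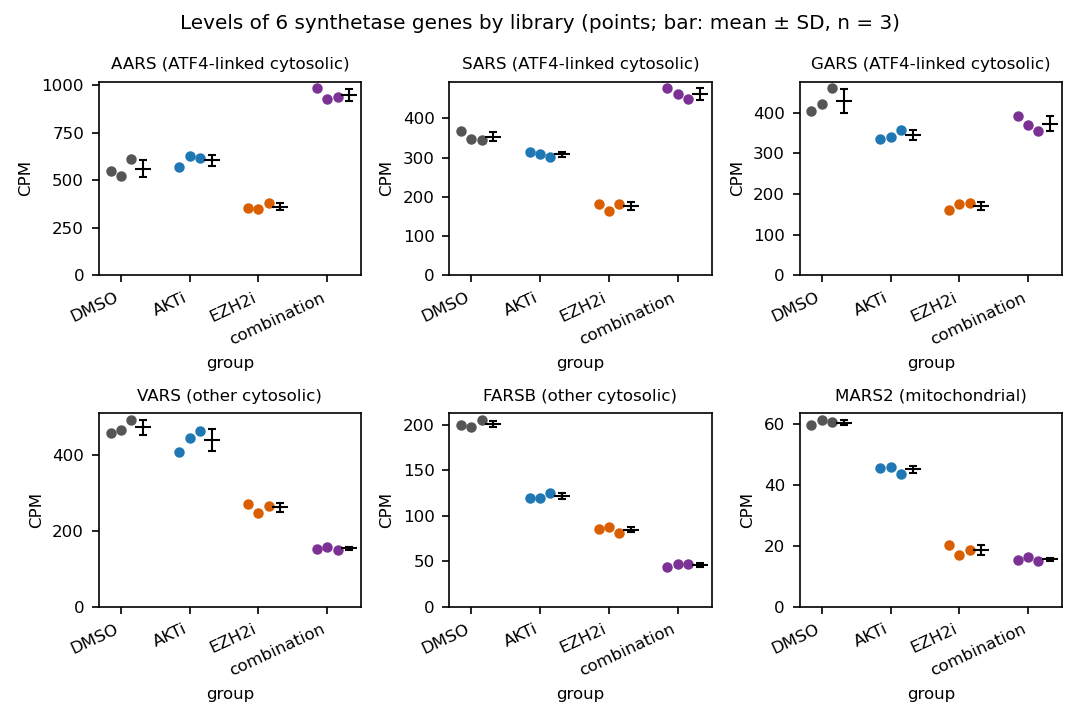
CPM of 6 genes in each of the 12 libraries (points, coloured by group), with the mean and SD of 3 libraries to the right of each group; every y axis starts at 0. AARS and SARS are highest in the combination (952 ± 31.9 CPM and 463 ± 15.1 CPM), GARS lies between EZH2i and DMSO at 373 ± 19.0 CPM, and VARS and FARSB step down from EZH2i to the combination.

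FARSB and FARSA, the subunits of 1 enzyme, fell together. FARSB (chr2:222570536-222656337, minus strand) was at 199, 198 and 205 CPM in DMSO, 119, 119 and 125 in AKTi, 85.6, 87.0 and 81.2 in EZH2i and 43.5, 46.9 and 47.1 in the combination, so that each treated group lay below DMSO and the combination lay lowest (4.38-fold below DMSO; log2 fold change −2.13, standard error 0.059, adjusted p = 1.6e-27). FARSA (chr19:12922479-12934037, minus strand), the alpha subunit, was at 266, 266 and 282 CPM in DMSO, 211, 222 and 239.6 in AKTi, 137, 112 and 126 in EZH2i and 81.6, 81.4 and 84.0 in the combination (3.29-fold below DMSO; log2 fold change −1.72, standard error 0.063, adjusted p = 7.3e-24). In FARSA too the combination lay below all other libraries. MARS2 (chr2:197705369-197708387, plus strand) was at 15.3, 16.2 and 15.1 CPM in the combination, below the 45.6, 46.0 and 43.7 CPM of AKTi and the EZH2i libraries given above, and 3.89-fold below DMSO (log2 fold change −1.96, standard error 0.083, adjusted p = 5.1e-22). VARS, the valyl enzyme, was at 459, 467 and 495 CPM in DMSO, 409.5, 446 and 465 in AKTi, 273, 248 and 267 in EZH2i and 154, 158 and 151 in the combination and came next among the cytosolic members (−1.62, adjusted p = 1.7e-24).

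The members not called against DMSO were TARS, the threonyl enzyme (−0.02, adjusted p = 0.72), HARS2 (0.05, adjusted p = 0.52) and SARS2 (0.05, adjusted p = 0.87). TARS was at 435, 417 and 469 CPM in DMSO, 398, 381 and 387 in AKTi, 331, 347 and 341 in EZH2i and 446, 427 and 428 in the combination; the combination and DMSO overlapped. The sign of TARS depends on how the libraries are scaled: with total counts it was 0.18 (adjusted p = 0.0027) and with upper quartiles 0.16 (adjusted p = 0.0037), settings in which the median over all genes in this comparison moves from 0.06 to 0.26 and 0.25. GARS and WARS, which were lower against DMSO, were not called under the same 2 scalings.

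The comparison of the combination with EZH2i alone asks what AKT inhibition adds in cells already given the EZH2 inhibitor, and here the classes parted. All 12 ATF4-linked members were higher in the combination, none of the other 8 cytosolic members was, and none of the 17 mitochondrial members was. Of the other 8 cytosolic members 7 were lower, and of the mitochondrial members 11 were lower. Over all genes 46.7% were called, 21.1% higher and 25.7% lower. The median log2 fold change was 0.55 for the ATF4-linked members (range 0.30 to 1.40), −0.42 for the other cytosolic members (range −0.88 to 0.10) and −0.27 for the mitochondrial members, beside −0.01 over all genes. The count of ATF4-linked members called higher was 12 under all 8 alternative settings and with each library left out. The list was drawn up with earlier results of these libraries known, so its split from the other members is a description and not independent evidence of ATF4 activity.

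**Figure D3:**
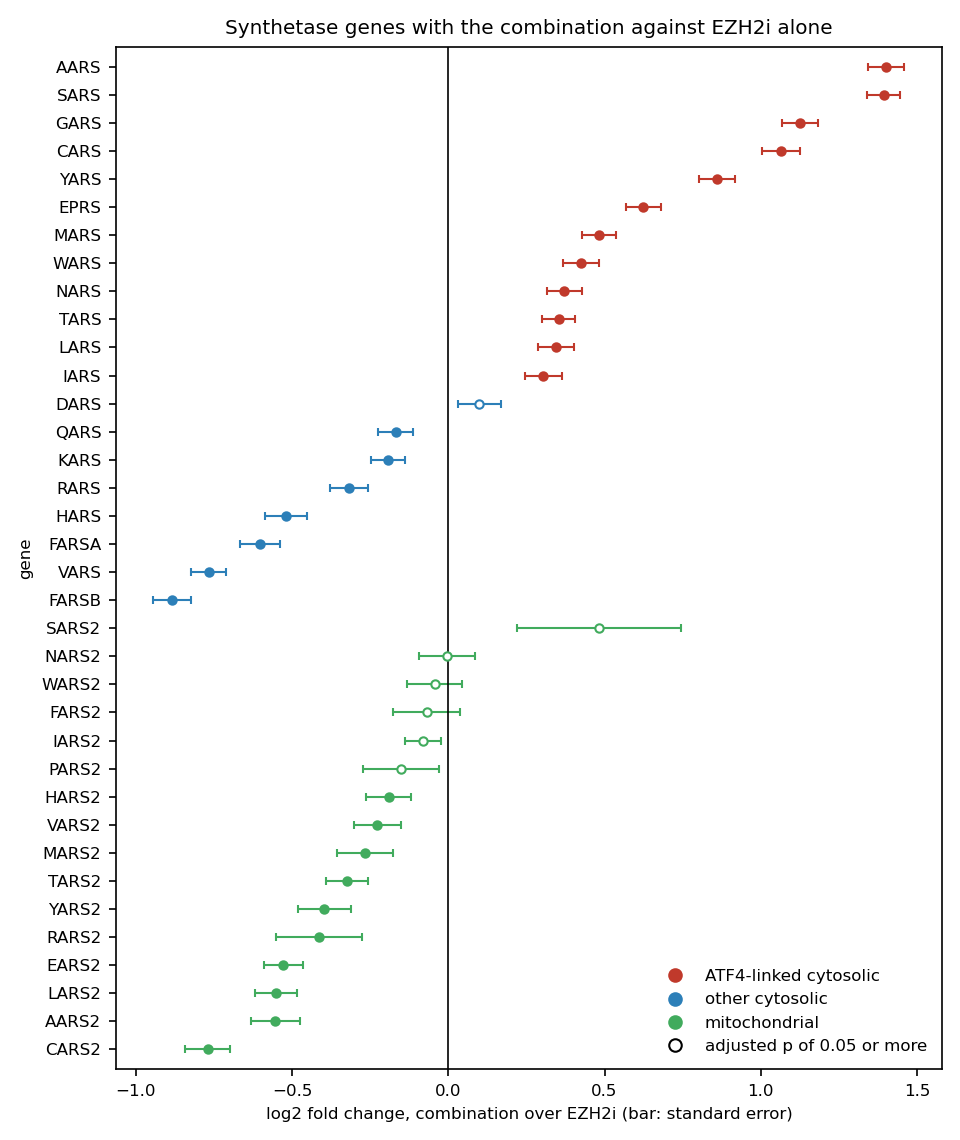
Log2 fold change of the combination over EZH2i for 36 of the genes, with standard errors from the edgeR fit; filled points have an adjusted p under 0.05, and colours mark the 3 classes. All 12 ATF4-linked genes lie to the right of 0 (0.30 to 1.40), and no filled point of the other classes does.

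The highest values were those of AARS (2.64-fold; log2 fold change 1.40, standard error 0.058, adjusted p = 2.2e-21), SARS (2.63-fold; log2 fold change 1.39, standard error 0.054, adjusted p = 3.3e-22) and GARS (2.18-fold; log2 fold change 1.13, standard error 0.058, adjusted p = 1.8e-18). GARS, the glycyl enzyme of both compartments, was at 404, 423 and 462 CPM in DMSO, 336, 340.3 and 358 in AKTi, 160.0, 176 and 177 in EZH2i and 393, 371 and 355 in the combination. Its combination libraries lay above those of EZH2i and below those of DMSO; 1 AKTi library lay within their range. CARS (1.06, adjusted p = 2.2e-17) and YARS (0.86, adjusted p = 4.4e-15) were next, and the smallest rise of the 12 was that of IARS (0.30, adjusted p = 4.6e-05), which had fallen most with EZH2i and stayed low, at 209.9, 216 and 215 CPM. YARS was at 322, 329.6 and 352 CPM in DMSO, 265, 279 and 286 in AKTi, 122, 110.2 and 128 in EZH2i and 224, 219 and 211 in the combination, so that it recovered part of its fall and its combination libraries lay between those of EZH2i and AKTi. The remaining 6 were EPRS (0.62), the methionyl MARS (0.48), the tryptophanyl WARS (0.42), the asparaginyl NARS (0.37), TARS (0.35) and the leucyl LARS (0.35), each with an adjusted p of 5.5e-06 or less. EPRS was at 587, 584 and 646 CPM in DMSO, 536, 535 and 537 in AKTi, 290.3, 326 and 329 in EZH2i and 517, 463 and 477 in the combination. Its combination libraries lay above those of EZH2i and below those of DMSO.

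The lowest values against EZH2i were those of FARSB (log2 fold change −0.88, standard error 0.060, adjusted p = 5.9e-15), CARS2 (log2 fold change −0.77, standard error 0.073, adjusted p = 3.3e-11) and VARS (log2 fold change −0.77, standard error 0.056, adjusted p = 4.2e-14). CARS2 was at 72.5, 74.4 and 76.8 CPM in DMSO, 59.8, 60.7 and 58.5 in AKTi, 44.1, 41.6 and 46.0 in EZH2i and 24.8, 27.3 and 25.1 in the combination, and its combination libraries lay below all others. FARSA (−0.60, adjusted p = 4.4e-10), HARS (−0.52, adjusted p = 4.4e-08), RARS (−0.32, adjusted p = 5.2e-05), KARS (−0.19, adjusted p = 0.0032) and QARS (−0.17, adjusted p = 0.014) were the other cytosolic members that fell. KARS and QARS were not called without EZH2i replicate C, and QARS also not without combination replicate C. DARS, the aspartyl enzyme, was the cytosolic member without a call (0.10, adjusted p = 0.25); with upper-quartile scaling it was called higher (adjusted p = 0.045). Among the other mitochondrial members that fell were AARS2 (−0.55, adjusted p = 2.9e-07), LARS2 (−0.55, adjusted p = 8.6e-09) and EARS2 (−0.53, adjusted p = 7.4e-09). MARS2, VARS2 and HARS2 fell by 0.27, 0.23 and 0.19 on the log2 scale and were not called without EZH2i replicate C.

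Against AKTi, the combination was lower for 14 of the 20 cytosolic and 14 of the 17 mitochondrial members and higher for 4 cytosolic members (64.2% of all genes called, 32.1% higher and 32.1% lower). The higher members were AARS (log2 fold change 0.65, standard error 0.057, adjusted p = 1.7e-12), SARS (log2 fold change 0.59, standard error 0.053, adjusted p = 3.6e-12), CARS (log2 fold change 0.40, standard error 0.059, adjusted p = 2.1e-07) and TARS (0.16, adjusted p = 0.0083), and TARS was not called with any 1 of the AKTi replicates A, B or C, EZH2i replicate A or combination replicate A left out. The lowest were MARS2 (log2 fold change −1.54, standard error 0.084, adjusted p = 3.6e-18), VARS (log2 fold change −1.51, standard error 0.057, adjusted p = 4.5e-23) and FARSA (log2 fold change −1.45, standard error 0.063, adjusted p = 4.6e-21).

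Whether AKTi acted differently with and without EZH2i was tested by the interaction, the log2 fold change of the combination over EZH2i minus that of AKTi over DMSO. It was positive in all 12 ATF4-linked members, with a median of 0.82 and a range of 0.44 (LARS) to 1.59 (SARS). Of the other 8 cytosolic members 4 were called negative (VARS, FARSA, HARS and QARS) and none positive, and of the 17 mitochondrial members 8 were called negative and none positive. Over all genes 28.2% were called, 10.7% positive and 17.5% negative, and the median over all genes was −0.05. The 4 came to 2 without DMSO replicate B and to 1 without AKTi replicate C. SARS (interaction 1.59, standard error 0.076, adjusted p = 1.0e-18), GARS (interaction 1.44, standard error 0.081, adjusted p = 1.3e-16) and AARS (interaction 1.29, standard error 0.081, adjusted p = 3.1e-15) had the highest values. VARS (interaction −0.66, standard error 0.078, adjusted p = 2.6e-08), AARS2 (interaction −0.49, standard error 0.110, adjusted p = 6.3e-04) and EARS2 (interaction −0.47, standard error 0.086, adjusted p = 6.0e-05) had the lowest. Of the 12 ATF4-linked members 10 were lower with AKTi than with DMSO and higher with AKTi on top of EZH2i, so that the AKTi effect changed sign. AARS and LARS were the 2 not called with AKTi alone, and EPRS lost that call without DMSO replicate C. Over all genes 21.9% were lower with AKTi than with DMSO and 21.1% higher in the combination than in EZH2i. The share of all genes with both calls was not counted. The list was drawn up with earlier results of these libraries known, so the 10 are a description. FARSB, lowered by AKTi in both settings, had no called interaction (−0.16, adjusted p = 0.16), and neither had MARS2 (0.16, adjusted p = 0.35).

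**Figure D4:**
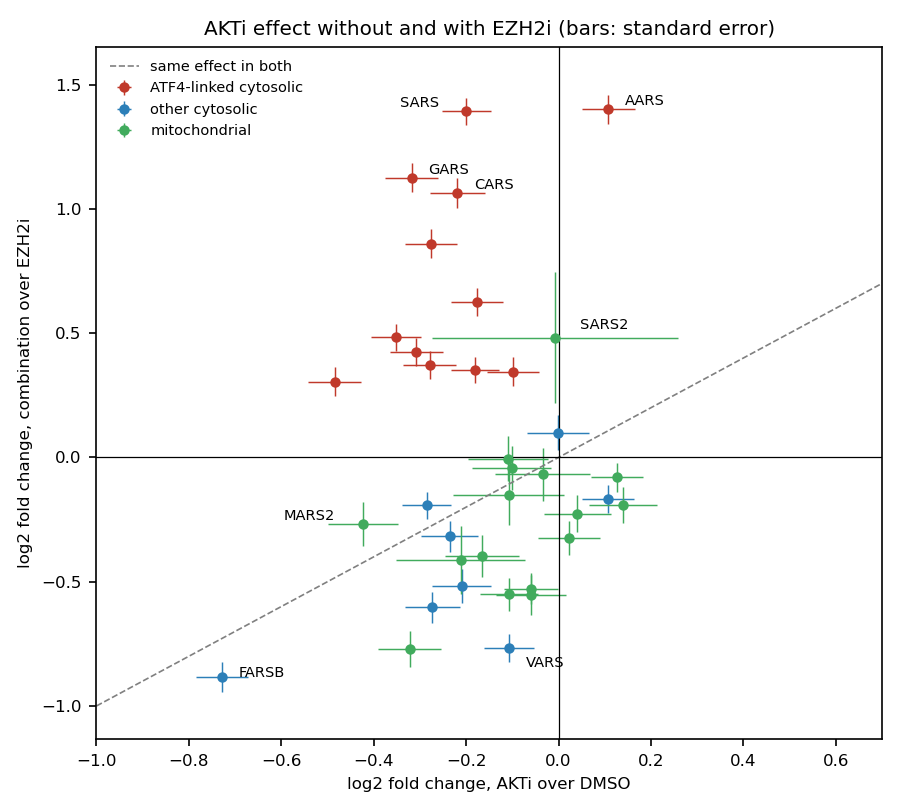
For 36 of the genes, the log2 fold change of AKTi over DMSO (x axis) and of the combination over EZH2i (y axis), with standard errors; the dashed line marks equal effects. The ATF4-linked genes lie far above the line (SARS at −0.20 and 1.39), most other genes on or below it (VARS at −0.11 and −0.77), and SARS2, with few counts, has the widest bars.

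Membership of the multisynthetase complex did not divide the genes in the same way. Its 8 enzymes (EPRS, LARS, IARS, MARS, QARS, KARS, RARS and DARS) were all lower in the combination than in DMSO, with a median of −0.58, whereas the 12 free cytosolic genes had 3 higher, 8 lower and 1 not called, with a median of −0.37. Of all genes tested, 38% were higher and 35.2% lower in this comparison. Against EZH2i, 4 of the 8 complex enzymes rose (EPRS, LARS, IARS and MARS), 3 fell (QARS, KARS and RARS) and DARS was not called, and of the 12 free genes 8 rose and 4 fell (FARSA, FARSB, HARS and VARS). Here 21.1% of all genes were higher and 25.7% lower. The 4 complex enzymes that rose were the 4 on the ATF4-linked list. The scaffolds of the complex, AIMP1, AIMP2 and EEF1E1, were lower than DMSO in every treated group. EEF1E1 fell by most and was at 31.3, 32.5 and 29.1 CPM in DMSO, 17.4, 17.2 and 16.2 in AKTi, 11.0, 14.5 and 10.8 in EZH2i and 7.40, 5.82 and 5.56 in the combination (log2 fold change −2.29, standard error 0.126, adjusted p = 1.5e-18 for the combination over DMSO), and each step lay below the one before without overlap. Against EZH2i, EEF1E1 (−0.94, adjusted p = 2.7e-07) and AIMP1 (−0.25, adjusted p = 0.0047) fell further and AIMP2 was not called (0.09, adjusted p = 0.27). MARS shares 982 bases with DDIT3, a stress gene on the opposite strand that itself rose in the combination (log2 fold change 2.34 against EZH2i, adjusted p = 1.8e-22), and YARS and KARS overlap S100PBP and TERF2IP by 1387 and 858 bases. Reads from the shared bases cannot be assigned without strand, and their part in the values of MARS, YARS and KARS was not tested.

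For 18 pairs of a cytosolic and a mitochondrial gene for the same amino acid the log2 ratio of their counts was taken within each library, a measure that does not depend on scaling between libraries. EPRS was paired with both EARS2 and PARS2, and FARSA and FARSB were each paired with FARS2. In the combination against EZH2i, 7 pairs had their members called in opposite directions, the cytosolic one higher and the mitochondrial one lower: AARS and AARS2, CARS and CARS2, EPRS and EARS2, LARS and LARS2, MARS and MARS2, TARS and TARS2, and YARS and YARS2. The AARS to AARS2 ratio was 3.36, 3.36 and 3.51 in the EZH2i libraries and 5.37, 5.29 and 5.45 in the combination, against 3.73, 3.65 and 3.85 in DMSO. As a ratio of counts this was 10.6 AARS counts per AARS2 count in EZH2i and 41.3 in the combination. The CARS to CARS2 log2 ratio went from 0.62 ± 0.07 (SD, n = 3) in EZH2i to 2.45 ± 0.13 in the combination. The combination lay above EZH2i in all libraries of both pairs. In the other 5 pairs the mean log2 ratio rose from 1.89 ± 0.07 to 3.15 ± 0.06 for YARS, from 2.29 ± 0.10 to 3.44 ± 0.05 for EPRS over EARS2, from 1.02 ± 0.21 to 1.92 ± 0.08 for LARS, from 3.09 ± 0.11 to 3.84 ± 0.03 for MARS and from 2.69 ± 0.06 to 3.37 ± 0.11 for TARS. The exact two-sided permutation test gave p = 0.1 for each of these 7 ratios, the smallest value that 3 libraries against 3 can give.

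**Figure D5:**
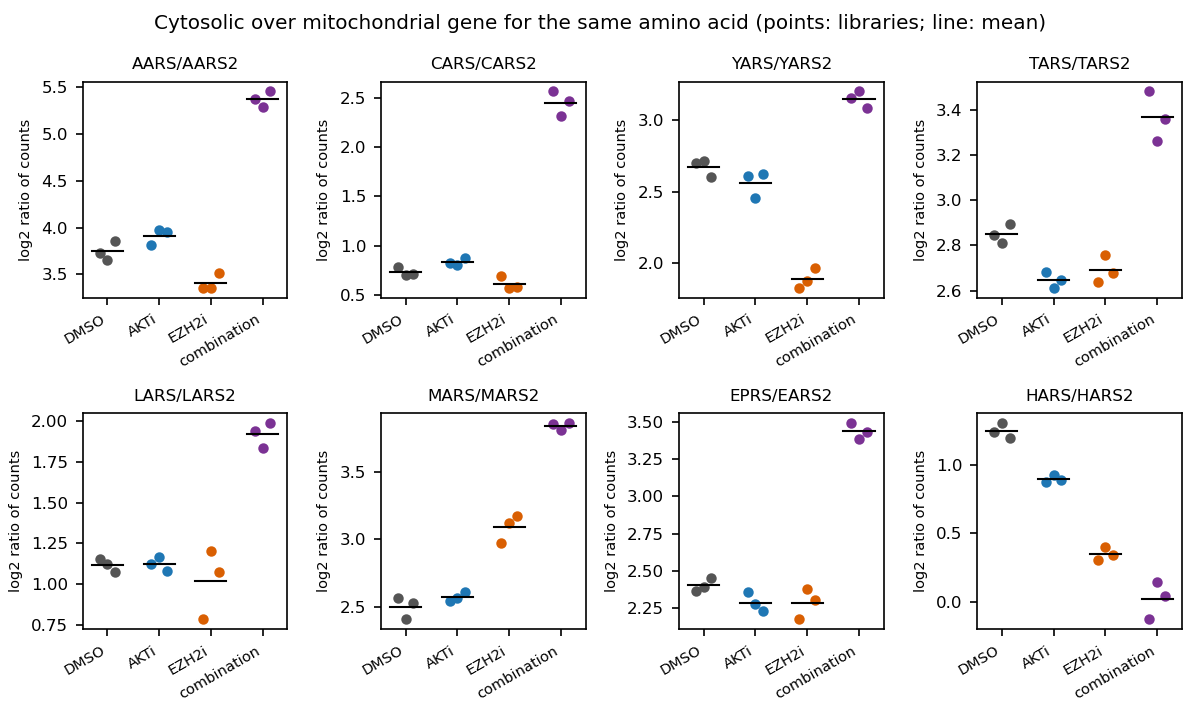
Log2 ratio of counts of the cytosolic over the mitochondrial gene for 8 amino acid pairs in each library (points) with the group mean (line); the y axes differ and do not start at 0. In 7 pairs the combination libraries lie above those of all other groups (AARS at 5.37 ± 0.08), and for HARS over HARS2 they lie below (0.02 ± 0.14).

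Over all 18 pairs the mean ratio was higher in the combination than in EZH2i for 14 and lower for 4. The 4 lower ones were FARSB over FARS2 (−0.81), VARS over VARS2 (−0.54), FARSA over FARS2 (−0.53) and HARS over HARS2 (−0.33), as differences in mean log2 ratio. In all 4 every combination library lay below every EZH2i library, with an exact permutation p of 0.1. The HARS to HARS2 log2 ratio was 1.24, 1.30 and 1.19 in DMSO, 0.87, 0.92 and 0.89 in AKTi, 0.31, 0.40 and 0.34 in EZH2i and −0.12, 0.15 and 0.04 in the combination. The groups did not overlap, and the ratio was lowest in the combination. EZH2i against DMSO was the contrast in which HARS fell and HARS2 rose. The overlaps of these genes given above hold for their ratio too. Opposite calls were also found for AARS and CARS with their partners in the combination against DMSO and, with TARS added, against AKTi; none was found in AKTi against DMSO or in EZH2i against AKTi.

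Most of the mitochondrial set was lowered by EZH2i, and 9 of the members it lowered were lower again in the combination than in EZH2i. Of all genes tested, 31.5% were lower in EZH2i than in DMSO and 25.7% lower in the combination than in EZH2i. The share of all genes with both calls was not counted. The other 2 of the 11 that fell from EZH2i to the combination were HARS2, which had risen with EZH2i, and RARS2, which had not been called. Of the 17 mitochondrial members, 15 were lower in the combination than in DMSO (35.2% of all genes were lower), with values from −1.96 (MARS2) to −0.42 (RARS2). After MARS2 the lowest were CARS2 (−1.53, adjusted p = 1.0e-20), EARS2 (−1.36, adjusted p = 5.6e-21), LARS2 (−1.25, adjusted p = 3.7e-19) and YARS2 (−1.10, adjusted p = 1.7e-14), which charge cysteinyl-, glutamyl-, leucyl- and tyrosyl-tRNA of the mitochondrion. RARS2 was not called with total-count or upper-quartile scaling. YARS2 shares 18161 bases of its span with DNM1L on the opposite strand. EARS2 shares 370 bases with UBFD1 and CARS2 shares 868 bases with ING1, also on opposite strands. UBFD1 had 24380 counts in the 12 libraries together and ING1 had 2203. The part of these overlaps in the values of YARS2, EARS2 and CARS2 was not tested. EARS2 was at 114, 111 and 118 CPM in DMSO, 105, 110.4 and 115 in AKTi, 64.2, 62.6 and 66.6 in EZH2i and 45.8, 44.2 and 44.2 in the combination, with the combination below all other libraries. NARS2, WARS2, FARS2 and IARS2, the asparaginyl, tryptophanyl, phenylalanyl and isoleucyl enzymes, fell with EZH2i (−0.74, −0.61, −0.58 and −0.60) and were not called between the combination and EZH2i. IARS2 was at 275, 272 and 303 CPM in DMSO, 306, 303 and 319 in AKTi, 175, 192 and 192 in EZH2i and 186, 178 and 165 in the combination. The 3 subunits of the amidotransferase that completes mitochondrial glutaminyl-tRNA were lower in EZH2i and in the combination than in DMSO (31.5% and 35.2% of all genes). In the combination the log2 fold change was −1.11 for QRSL1 (adjusted p = 1.6e-12), −0.49 for GATB (adjusted p = 1.6e-06) and −0.74 for GATC (adjusted p = 3.2e-10). MTFMT, which formylates the mitochondrial initiator methionyl-tRNA, was lower too (−0.82, adjusted p = 5.7e-10).

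Genes of the amino acid response outside the family were read from a list of 7: ATF4 itself, the biosynthetic enzymes ASNS and PSAT1, the stress regulators DDIT3, TRIB3 and SESN2, and the glutathione-degrading CHAC1. All 7 were lower in EZH2i than in DMSO (31.5% of all genes were lower). All 7 were higher in the combination than in EZH2i, with a median log2 fold change of 1.88 (21.1% of all genes were higher). All 7 had a positive interaction, with a median of 2.02 (10.7% of all genes). With AKTi alone 6 were lower than DMSO and 1 was not called, with a median of −0.50 (21.9% of all genes were lower). This list too was drawn up with earlier results of these libraries known, so its counts are a description. ATF4 mRNA was at 723, 717 and 703 CPM in DMSO, 620.0, 633 and 628 in AKTi, 422, 411 and 430.5 in EZH2i and 1089, 1079 and 1028 in the combination (log2 fold change 1.34, standard error 0.050, adjusted p = 1.1e-22 for the combination over EZH2i). The asparagine synthetase ASNS, an enzyme of amino acid synthesis and not of tRNA charging, was at 19.4, 21.2 and 20.9 CPM in DMSO, 19.0, 20.0 and 16.8 in AKTi, 8.44, 7.66 and 7.40 in EZH2i and 28.9, 31.6 and 25.5 in the combination (log2 fold change 1.88, standard error 0.112, adjusted p = 1.4e-16). Both were lowest in EZH2i and highest in the combination, the order also seen in AARS and SARS. Against DMSO, 6 of the 7 were higher in the combination (38% of all genes were higher), and PSAT1, a step of serine synthesis, was lower (−0.57, adjusted p = 3.2e-12). XPOT, the exportin that carries tRNA out of the nucleus, was lower with EZH2i (−1.44, adjusted p = 2.5e-22) and higher in the combination than in EZH2i (1.13, adjusted p = 6.4e-19), but remained below DMSO (−0.31, adjusted p = 4.4e-06). ATF4 is controlled largely through its translation, which mRNA counts do not measure.

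The sequence upstream of the transcription start was read for the 30 members with an entry among RefSeq promoters (GRCh38.p14), 10 of them ATF4-linked. The 250 bases before each start were searched on both strands for TGATGNAA, the core of the composite element bound by C/EBP and ATF factors, and for CACGTG, the E-box. The 2 motifs share no bases in the matches shown. TGATGNAA was found in 2 of the 10 ATF4-linked promoters, 0 of the 6 other cytosolic ones and 1 of the 14 mitochondrial ones, beside 1104 of all 35116 promoters (3.14%). CACGTG was found in 1 of 10, 0 of 6 and 2 of 14, beside 2228 of all promoters (6.34%). One start was read per gene, and some starts differ from the deposited gene models. In those models the IARS match to TGATGNAA and the EARS2 match lie inside the gene's span. The whole windows of MARS, NARS, TARS, WARS, FARSA, HARS, KARS, QARS, CARS2 and EARS2 lie inside it too. Other windows, such as those of CARS and EPRS, lie partly inside. The motif counts of all 3 classes therefore mix sequence before and within the deposited gene models. The matches are shown because they lie upstream of the starts read for members at both ends of the response. Each is given as 30 bases 5′ to 3′ on the gene's strand with the motif in capitals.
AARS, chr16:70289675-70289704, minus strand, with TGATGNAA read on the other strand: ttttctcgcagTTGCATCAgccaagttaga
IARS, chr9:92293698-92293727, minus strand, with TGATGNAA read on the other strand: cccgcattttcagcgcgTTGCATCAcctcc
IARS, chr9:92293866-92293895, minus strand, with CACGTG: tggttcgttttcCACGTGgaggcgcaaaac
YARS2, chr12:32756076-32756105, minus strand, with TGATGNAA: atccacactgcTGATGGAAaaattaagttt
EARS2, chr16:23557351-23557380, minus strand, with CACGTG: acgcagggagaagccCACGTGtgctattcc
MARS2, chr2:197705339-197705368, plus strand, with CACGTG: gctgcgcatgcgcctctcaCACGTGctgtc
The AARS match begins 187 bases before the start, and those of IARS begin 13 and 186 bases before it. AARS had the largest rise over EZH2i and IARS the smallest of the 12, so members with a match lay at both ends of the range. No match in the other 8 ATF4-linked promoters says only that these letters are not in this window. SARS, whose rise was second, held neither motif in its 250 bases, which are shown for that reason.
SARS, chr1:109213643-109213892, plus strand: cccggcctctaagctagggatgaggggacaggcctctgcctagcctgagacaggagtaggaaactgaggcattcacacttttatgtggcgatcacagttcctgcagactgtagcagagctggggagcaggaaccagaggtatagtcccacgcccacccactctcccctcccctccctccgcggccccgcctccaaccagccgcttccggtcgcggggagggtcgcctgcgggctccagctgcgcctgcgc
A match is a run of letters and not a measured site. Sequence after the start read, or further upstream than this window, was not searched.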

How the data were processed

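Polyadenylated RNA was sequenced from 12 C4.2B libraries. The authors deposited raw counts per gene, made with STAR and HTSeq on hg38 per the submitters' processing notes, which give no versions or strand setting. They also deposited DESeq2-normalised counts, a signal table. For the 56994 names unique in both tables each library's values were its counts over a single constant (largest relative departure 5.6e-10), and only the counts were tested. Gene lengths were those deposited with the counts.

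Genes were kept by filterByExpr (minimum count 10, minimum total 15), libraries were scaled by TMM, and group means were fitted over all 12 libraries with the quasi-likelihood test of edgeR 4.0.16 in R 4.3.3, with Benjamini-Hochberg adjustment over 16646 genes and a threshold of 0.05. Standard errors were derived from the fold change and its F statistic. Ratios within libraries were compared by exact two-sided permutation tests (scipy 1.17.1). The members and lists were chosen with earlier results of these data known, so lists are described by counts and medians and carry no test. Members named with full values were the 3 highest and the 3 lowest called in each comparison and the pairs called in opposite directions; others were chosen to illustrate their role group. The lists of tRNA partner genes (editing, selenocysteine, TARSL2) are given at the close.

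On simulated counts for the combination against DMSO, 149 of 196 genes changed 2-fold were recovered (76.0%), with 10 false calls among 16185 genes tested. In the deposited counts 73.2% of all genes were called in this comparison. Recovery at that share was not tested, and neither were false calls. The replicate letters did not pair the libraries: deviations of libraries with the same letter correlated at −0.058 to 0.069 over 18 pairs. No library pair within a group looked like a repeated deposit of the same library (chi-square per gene 2.63 to 8.09). Alternatives were DESeq2 1.42.0, 3 other scalings, 2 other filters, fits restricted to the groups in question, the replicate letter as a block, and fits that omitted 1 library at a time. Values of 1 mitochondrial member are not reported here, though it stays in the counts and medians. Promoter letters came from RefSeq, and sequences of 7 members were not analysed here.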

Additional observations from a re-analysis of the deposited data

Results flagged for a closer look

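For the 23 genes listed here the effect of AKTi differed between cells with and without EZH2i (edgeR interaction test, adjusted p under 0.05). The log2 interaction was positive for SARS 1.59, GARS 1.44, AARS 1.29, CARS 1.28, YARS 1.13, MARS 0.84, EPRS 0.80, IARS 0.79, WARS 0.73, NARS 0.65, TARS 0.53 and LARS 0.44, which are the 12 ATF4-linked genes. It was negative for the cytosolic genes VARS −0.66, FARSA −0.33, HARS −0.31 and QARS −0.27 and for the mitochondrial genes AARS2 −0.49, EARS2 −0.47, CARS2 −0.45, LARS2 −0.44, TARS2 −0.35, HARS2 −0.33 and VARS2 −0.27. VARS2 lost its call under DESeq2, the replicate block, 4 other settings and 8 of the 12 leave-one-out fits, and QARS, HARS, HARS2 and FARSA lost theirs in at least 1 leave-one-out fit. Groups of 3 libraries are too small to be searched for outlying libraries by the rule used.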

How the results depend on the processing

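Over the 7 comparisons, 224 single-gene results were called in at least 1 setting, and results never called were left out here. Under the alternatives these gave 4454 values. Of these, 4317 kept their direction and their side of the threshold, 90 lost the call, 39 gained it and 8 changed sign. The sign changes were small values near 0: TARS in the combination against DMSO (−0.02) became 0.18 with total counts, 0.16 with upper quartiles, 0.046 with at least 10 counts in every library and 0.018 without DMSO replicate C (−0.11 to 0.018 with 1 library left out in turn); HARS2 in the same comparison (0.05) became −0.025, −0.0058 and −0.0047 without DMSO replicate B, AKTi replicate A and EZH2i replicate A (−0.025 to 0.094); and DARS in the combination against EZH2i (0.10) became −0.0055 without EZH2i replicate A. The number of members called ranged from 17 to 20 for AKTi against DMSO, 32 to 35 for EZH2i against DMSO, 33 to 34 for the combination against DMSO, 30 to 33 for the combination against AKTi, 25 to 31 for the combination against EZH2i, 29 to 34 for EZH2i against AKTi and 19 to 26 for the interaction. With the replicate block 34 members were called in the combination against DMSO, as without it, and 23 in place of 24 in the interaction; the letters share only a number, and the block moved no other count of members called. The cytosolic minus mitochondrial difference in median log2 fold change moved when means over genes replaced medians, from −0.29 to −0.35 for EZH2i against DMSO, 0.14 to 0.19 for the combination against DMSO, 0.62 to 0.54 for the combination against EZH2i and 0.82 to 0.68 for the interaction. With 1 library left out in turn it ranged from −0.18 to −0.13 for AKTi against DMSO, −0.30 to −0.16 for EZH2i against AKTi, −0.35 to −0.20 for EZH2i against DMSO, 0.27 to 0.37 for the combination against AKTi, 0.13 to 0.19 for the combination against DMSO, 0.52 to 0.70 for the combination against EZH2i and 0.77 to 0.89 for the interaction. Total-count and upper-quartile scaling added up to 2 cytosolic and 2 mitochondrial members called higher with AKTi. The cause of these shifts was not tested. SARS2 had 524 counts in all libraries together, beside the same-strand overlap given above, whose part was not tested.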

Other observations

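Further genes that handle charged tRNA, of editing, deacylation and selenocysteine synthesis, were called in both directions. DTD2, a deacylase that clears mischarged D-aminoacyl-tRNA, fell in the combination against DMSO (−1.15, adjusted p = 4.2e-14, edgeR quasi-likelihood test). DTD1, another deacylase, was not called (−0.20, adjusted p = 0.12). The alanyl editing factor AARSD1 was called lower in the same test (−0.79, adjusted p = 0.049), but had few counts. It was at 2.09, 2.51 and 1.15 CPM in DMSO and 1.01, 1.27 and 0.967 CPM in the combination, and the groups overlapped. Of the selenocysteine pair, the kinase PSTK was lower than DMSO (−0.71, adjusted p = 2.3e-06) and the synthase SEPSECS was higher (0.30, adjusted p = 0.0075), and both had a positive interaction (0.69 and 0.43). TARSL2, a threonyl synthetase-like gene that the rule does not take in, was not called in any of the 7 comparisons, at 0.10 in the combination against DMSO (adjusted p = 0.55).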
